A study of Mus musculus with 6 samples.

Results

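The constitutive proteasome genes of mouse embryonic fibroblasts under reprogramming were compared between cells with and without their floxed Adar alleles. They were taken by symbol: every row whose gene name is a Psma, Psmb, Psmc or Psmd symbol with a number, or Psme1 to Psme4, leaving out the interferon-inducible subunits Psmb8, Psmb9 and Psmb10. The rule found 40 genes among 23406 with a name. They comprise 8 core alpha genes, 8 core beta genes, 9 genes of the base, 8 of the lid, 3 chaperones that assemble the base (Psmd5, Psmd9 and Psmd10) and 4 activators. Of these, 38 passed the filter on low values, which asked for at least 1 FPKM in at least 2 libraries. FPKM is the number of fragments scaled to transcript length and to the size of the library. The 2 that did not pass were Psma8, a core subunit of the testis, which stood between 0 and 0.222 FPKM, and Psmb11, the core subunit of the thymus, which stood between 0 and 0.0297 FPKM.

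The proteasome degrades proteins that carry chains of ubiquitin. Its barrel-shaped core, the 20S particle, has outer rings of alpha subunits and inner rings of beta subunits, 3 of which cut peptide bonds. The 19S particle caps the barrel: the ATPases of its base unfold the substrate, and its lid removes the ubiquitin chain. Other caps, the activators PA28 and PA200, open the barrel without using ATP. When proteasome activity is short, mammalian cells raise the genes of both particles together through NRF1, the product of Nfe2l1. Interferon adds PA28 and exchanges the cutting subunits for inducible ones.

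All cells were fibroblasts carrying OSKM, the reprogramming factors Oct4, Sox2, Klf4 and Myc, taken at day 7. KO cells had the genotype Adar1 Fl/Fl and received 4OHT, 4-hydroxytamoxifen, which activates tamoxifen-dependent Cre (n = 2), and WT cells had the same alleles and received vehicle (n = 2). MUT cells had the genotype Adar1 Fl/E861A and received 4OHT (n = 1), and HET cells had those alleles and received vehicle (n = 1). Adar encodes ADAR1, which turns adenosine into inosine within double-stranded RNA, and E861A is a change in its catalytic domain known to abolish editing. KO against WT asks what loss of ADAR1 does, and MUT against HET what happens when only the E861A protein can still be made. No library analysed here had 4OHT with Adar intact, so 4OHT or Cre and the loss of Adar cannot be told apart, and the driver of Cre is not given in the labels. Nor is it given whether replicates were separate cultures, and the spread that enters the p-values may therefore be technical.

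Promoters of 4 members are shown because the results below turn on these genes or on their inducible counterparts. Psmd8 is the member that rose furthest, Psmb5 and Psmb6 encode cutting subunits that did not pass the test, and Psme1 encodes a chain of PA28. Each window is RefSeq sequence of GRCm38.p6, from 250 bases before to 50 bases after a gene start, on the gene's strand. They lie at chr7:29180624-29180923 (minus strand), chr14:54617946-54618245 (minus), chr11:70525107-70525406 (plus) and chr14:55578244-55578543 (plus), in the order printed.
Psmd8: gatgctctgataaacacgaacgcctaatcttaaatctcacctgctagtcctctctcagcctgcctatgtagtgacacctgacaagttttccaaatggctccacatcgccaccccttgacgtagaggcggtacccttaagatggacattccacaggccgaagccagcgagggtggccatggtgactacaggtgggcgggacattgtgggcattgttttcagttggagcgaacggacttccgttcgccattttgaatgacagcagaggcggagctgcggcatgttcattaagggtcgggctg
Psmb5: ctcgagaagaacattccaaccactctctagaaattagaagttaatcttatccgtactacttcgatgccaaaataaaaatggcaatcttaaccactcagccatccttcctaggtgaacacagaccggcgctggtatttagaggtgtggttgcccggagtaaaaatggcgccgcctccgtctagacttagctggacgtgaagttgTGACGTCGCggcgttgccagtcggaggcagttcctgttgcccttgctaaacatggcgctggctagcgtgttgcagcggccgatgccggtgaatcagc
Psmb6: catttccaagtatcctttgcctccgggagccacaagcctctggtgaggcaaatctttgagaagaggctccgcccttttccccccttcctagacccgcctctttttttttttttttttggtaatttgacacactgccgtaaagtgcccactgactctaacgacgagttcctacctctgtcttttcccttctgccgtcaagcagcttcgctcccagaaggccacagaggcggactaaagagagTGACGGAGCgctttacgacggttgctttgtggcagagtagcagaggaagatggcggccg
Psme1: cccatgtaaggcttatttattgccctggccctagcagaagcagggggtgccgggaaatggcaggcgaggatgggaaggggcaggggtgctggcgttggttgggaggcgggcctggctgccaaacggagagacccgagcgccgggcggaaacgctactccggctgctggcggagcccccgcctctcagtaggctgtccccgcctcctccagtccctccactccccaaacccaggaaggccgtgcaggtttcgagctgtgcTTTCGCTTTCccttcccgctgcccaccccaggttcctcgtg
Capitals mark the core of the antioxidant response element bound by NRF1 and NRF2 (TGACNNNGC) in Psmb5 and Psmb6, and the core of the interferon-stimulated response element (here on the opposite strand) in Psme1. The first capital stands at position -47 from the start in Psmb5, -9 in Psmb6 and 10 in Psme1. Neither motif, nor a CCAAT box (CCAAT), is in the Psmd8 window on either strand. Windows were found for 33 members, 36 windows in all. The antioxidant core was in 6 of them (16.7%), against 12.4% of 32851 windows of all genes. Psmb5, Psmb6, Psmc6, Psmd9, Psmd12 and Psme4 held it. By the call in KO against WT, it was in 1 of 11 windows of members that rose. It was in 2 of 4 windows of members that fell and in 3 of 20 of members not called. CCAAT was in 13 (36.1%), against 37.4% of all windows. The interferon core was in 4 (11.1%), those of Psmb3, Psmd4, Psmd9 and Psme1, against 3.44% of all windows. Psme2, which encodes the other chain of PA28, was also searched and held none of these motifs. A match of letters is a description of the window and not a bound site.

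Most proteasome genes differed little between KO and WT. In KO against WT, limma called 13 of the 38 tested members at an adjusted p under 0.05 (34.2%), while it called 57.7% of all 12266 genes tested. Of the 13, 9 rose and 4 fell, against a background of 29.5% of all genes higher and 28.2% lower in KO. With quantile normalization 9 rose and 8 fell. The median size of a member's difference, whatever its direction, was 0.15 on the log2(FPKM + 1) scale, and that of all genes was 0.36. No member reached a 2-fold difference on that scale, which understates the change of low genes, while 14.1% of all genes did. Psmd8 fell just short there, at 0.998, while its KO mean in FPKM was 2.01 times its WT mean. The KO and WT libraries did not overlap in 24 members (16 higher and 8 lower in KO), compared with 78.8% of all genes (40.9% higher and 38.0% lower). Together the members took 0.889% and 0.891% of the FPKM on named genes in KO, 0.833% and 0.869% in WT, 0.841% in MUT and 0.863% in HET. These are bulk libraries, in which fewer cells with a transcript and less of it in each cell cannot be told apart.

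**Figure D1:**
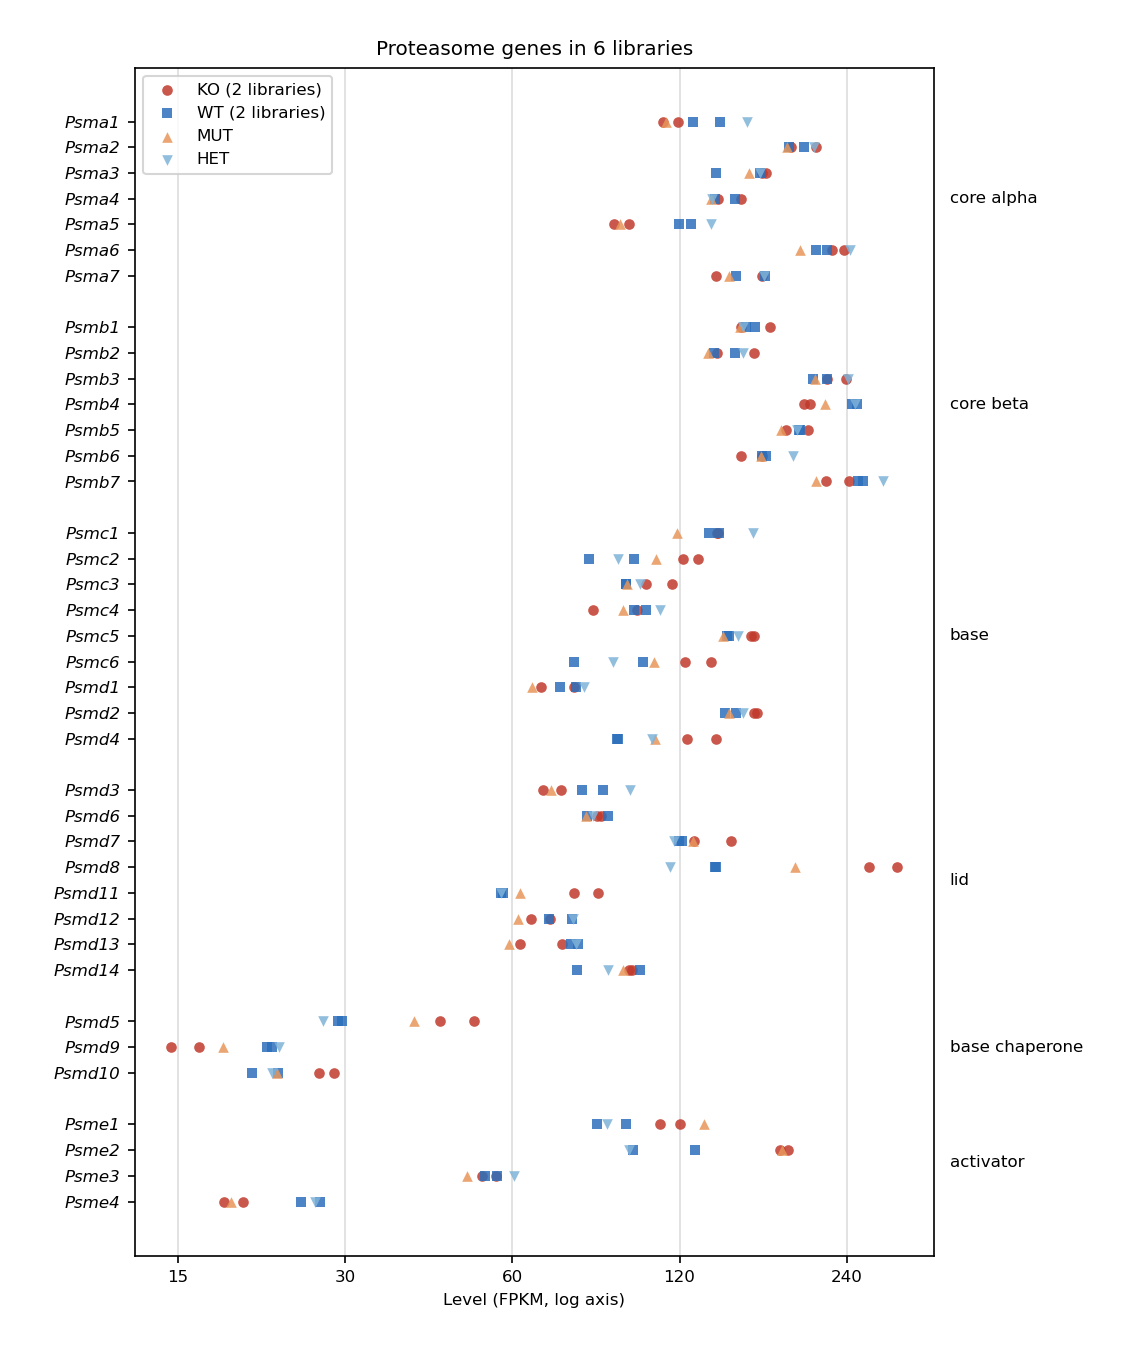
Level of each of the 38 tested proteasome genes in FPKM (log axis) by subunit class, with 1 point per library: 2 KO, 2 WT, 1 MUT and 1 HET. Most rows lie close together across the libraries, while in Psmd8 the KO points, at 263 and 296 FPKM, stand apart from the WT points, both at 139 FPKM.

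The genes of the core stayed closest to WT. Psmb5 encodes the subunit with chymotrypsin-like activity (GRCm38 chromosome 14, 54614119 to 54618022, minus strand, protein-coding). It stood at 187 and 204 FPKM in KO, 198 and 197 FPKM in WT, 183 FPKM in MUT and 196 FPKM in HET. The KO libraries lay on either side of the WT libraries (log2 difference -0.02, SE 0.10, adjusted p = 0.901). Psmb6, with caspase-like activity (chromosome 11, 70525367 to 70527858), stood at 169 and 155 FPKM in KO, 172 and 169 FPKM in WT, 168 FPKM in MUT and 192 FPKM in HET. Its log2 difference between KO and WT was -0.07 (SE 0.10, adjusted p = 0.536). Psmb7, with trypsin-like activity (chromosome 2, 38588036 to 38644087), stood at 220.0 and 242 FPKM in KO, 257 and 252 FPKM in WT, 211 FPKM in MUT and 279 FPKM in HET. Both KO libraries were below both WT libraries, but the difference of -0.14 (SE 0.10) missed the threshold (adjusted p = 0.246). It passed only with quantile normalization (adjusted p = 0.0295, and 0.0295 to 0.624 over the 12 alternatives).

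A member of each ring fell, and 2 of the 14 tested core genes were called (14.3%), against 57.7% of all genes. Psma5, in the alpha ring (chromosome 3, 108256926 to 108279974), stood at 91.3 and 97.2 FPKM in KO, 119.8 and 126 FPKM in WT, 93.9 FPKM in MUT and 137 FPKM in HET. It was lower in both KO libraries than in either WT library (log2 difference -0.38, SE 0.10, adjusted p = 0.00612), and lower in MUT than in HET. It did not pass without WT 2 (adjusted p = 0.0592, the highest over the alternatives, with 0.00107 the lowest). Psmb4, a beta subunit with no catalytic role (chromosome 3, 94884093 to 94886961), stood at 206 and 201 FPKM in KO, 245 and 251 FPKM in WT, 219.9 FPKM in MUT and 248 FPKM in HET. The groups did not overlap (log2 difference -0.28, SE 0.09, adjusted p = 0.0234). Its log2 difference was -0.30 (SE 0.14) with WT 1 left out and -0.27 (SE 0.14) with WT 2 left out. The call was lost in both of these fits, which keep a lone WT library, though the difference itself moved little. The other 12 tested core genes were not called, with log2 differences between -0.21 (Psma1) and 0.16 (Psma3). Class medians were 0.03 for alpha and -0.02 for beta genes, against 0.02 for all genes. With quantile normalization, which moved the median of all genes to 0.06, both class medians were below 0, at -0.09 and -0.13. The alpha median was also below 0 without KO 2 (-0.04) and without WT 1 (-0.04), and the beta median was above 0 without KO 1 (0.05).

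Base genes that passed the test all rose, 3 of 9 (33.3%), near the 29.5% of all genes called higher in KO. Psmc6 encodes a base ATPase (chromosome 14, 45329788 to 45349705, plus strand). It stood at 123 and 137 FPKM in KO, 77.6 and 103 FPKM in WT, 108 FPKM in MUT and 91.2 FPKM in HET. The WT libraries were far apart, yet both were below the KO libraries (log2 difference 0.53, SE 0.13, adjusted p = 0.00623). Psmd4 encodes a subunit that binds ubiquitin chains (chromosome 3, 95032694 to 95042614, minus strand). It stood at 124 and 139 FPKM in KO, 92.8 and 92.7 FPKM in WT, 109 FPKM in MUT and 107 FPKM in HET. The KO libraries were clearly above WT (log2 difference 0.50, SE 0.10, adjusted p = 0.00161), whereas MUT and HET were almost equal. Psmc2, another base ATPase, rose by 0.47 (SE 0.11, adjusted p = 0.00446), with 122 and 129.5 FPKM in KO against 82.5 and 99.2 FPKM in WT. Its level was 109 FPKM in MUT and 93.0 FPKM in HET.

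Without WT 1, the library in which both ATPases were lowest, the calls of Psmc6 (adjusted p = 0.0841) and Psmc2 (adjusted p = 0.0681) were lost. When low genes were kept in the test, all 3 calls were lost (adjusted p = 0.204 for Psmc6, 0.124 for Psmc2 and 0.0532 for Psmd4). Over the alternatives the adjusted p ran from 1.81e-06 to 0.204 for Psmc6, from 6.75e-05 to 0.124 for Psmc2 and from 4.84e-06 to 0.0532 for Psmd4. The remaining 6 base genes were not called: the ATPases Psmc1, Psmc3, Psmc4 and Psmc5, and the scaffold subunits Psmd1 and Psmd2. Their log2 differences lay between -0.15 (Psmc4) and 0.20 (Psmc3). The ATPases are built into the ring in equal number, but their transcripts in KO ranged from 83.9 FPKM for Psmc4 in KO 2 to 164 FPKM for Psmc5 in the same library. The class median was 0.15.

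The clearest change was that of 1 lid gene, Psmd8. Of the 8 lid genes, 2 were called (25.0%), both higher in KO, against 29.5% of all genes called higher. Psmd8 encodes a lid subunit known from yeast to join the lid last (ENSMUSG00000030591.17, chromosome 7, 29174188 to 29180701, minus strand, protein-coding). It stood at 263 and 296 FPKM in KO, 139 and 139 FPKM in WT, 194 FPKM in MUT and 116 FPKM in HET. The KO mean of 279.6 ± 23.6 FPKM was 2.01 times the WT mean of 139 ± 0.214 FPKM (SD, n = 2 each), and MUT was above HET. The log2 difference between KO and WT was 0.998 (SE 0.10, adjusted p = 1.35e-05), and between MUT and HET 0.74. Among the 38 tested members Psmd8 had the highest FPKM in both KO libraries, was 5th in MUT, 13th and 17th in WT and 19th in HET. Its level was 3.40 and 3.46 times the median of the other 7 lid genes in KO, 1.78 and 1.74 times in WT, 2.75 times in MUT and 1.38 times in HET. The rise of Psmd8 was called under all 12 alternatives (adjusted p 2.07e-19 to 0.0213).

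The files list 3 other rows at the coordinates of the Psmd8 row. The row shared by Fam98c and Spred3 had 26.2 and 23.6 FPKM in KO against 20.4 and 18.8 FPKM in WT, a log2 difference of 0.33 (SE 0.10, adjusted p = 0.0186). Ggn had 1.42 and 1.23 FPKM in KO and 1.65 and 1.69 FPKM in WT, and Rasgrp4 was under 1 FPKM in every library. None of them came near the level of Psmd8.

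Psmd11 encodes a lid subunit that holds lid and base together, and in human embryonic stem cells its level is known to go with high proteasome activity (chromosome 11, 80428615 to 80473248). It stood at 77.4 and 85.7 FPKM in KO, 57.6 and 57.2 FPKM in WT, 61.9 FPKM in MUT and 57.1 FPKM in HET. Both KO libraries were above every other library (log2 difference 0.50, SE 0.10, adjusted p = 0.00138), and the call was made under all 12 alternatives (adjusted p 1.56e-05 to 0.0412). Psmd14, the deubiquitinase of the lid, stood at 98.5 and 97.5 FPKM in KO and 78.5 and 102 FPKM in WT, and was not called (adjusted p = 0.39). Psmd3, a scaffold of the lid, had a log2 difference of -0.24 (adjusted p = 0.0573). It was called lower in 4 of the 12 alternatives: with quantile normalization (adjusted p = 0.0141), in the fit with a replicate block (0.0159), without KO 1 (0.0309) and with median-of-ratios scaling (0.0446), and its highest adjusted p was 0.291. Psmd6, Psmd7, Psmd12 and Psmd13 were not called either, with log2 differences between -0.20 and 0.19. The lid median of 0.07 was not stable in direction: it was -0.02 with quantile normalization and -0.05 without WT 1.

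**Figure D2:**
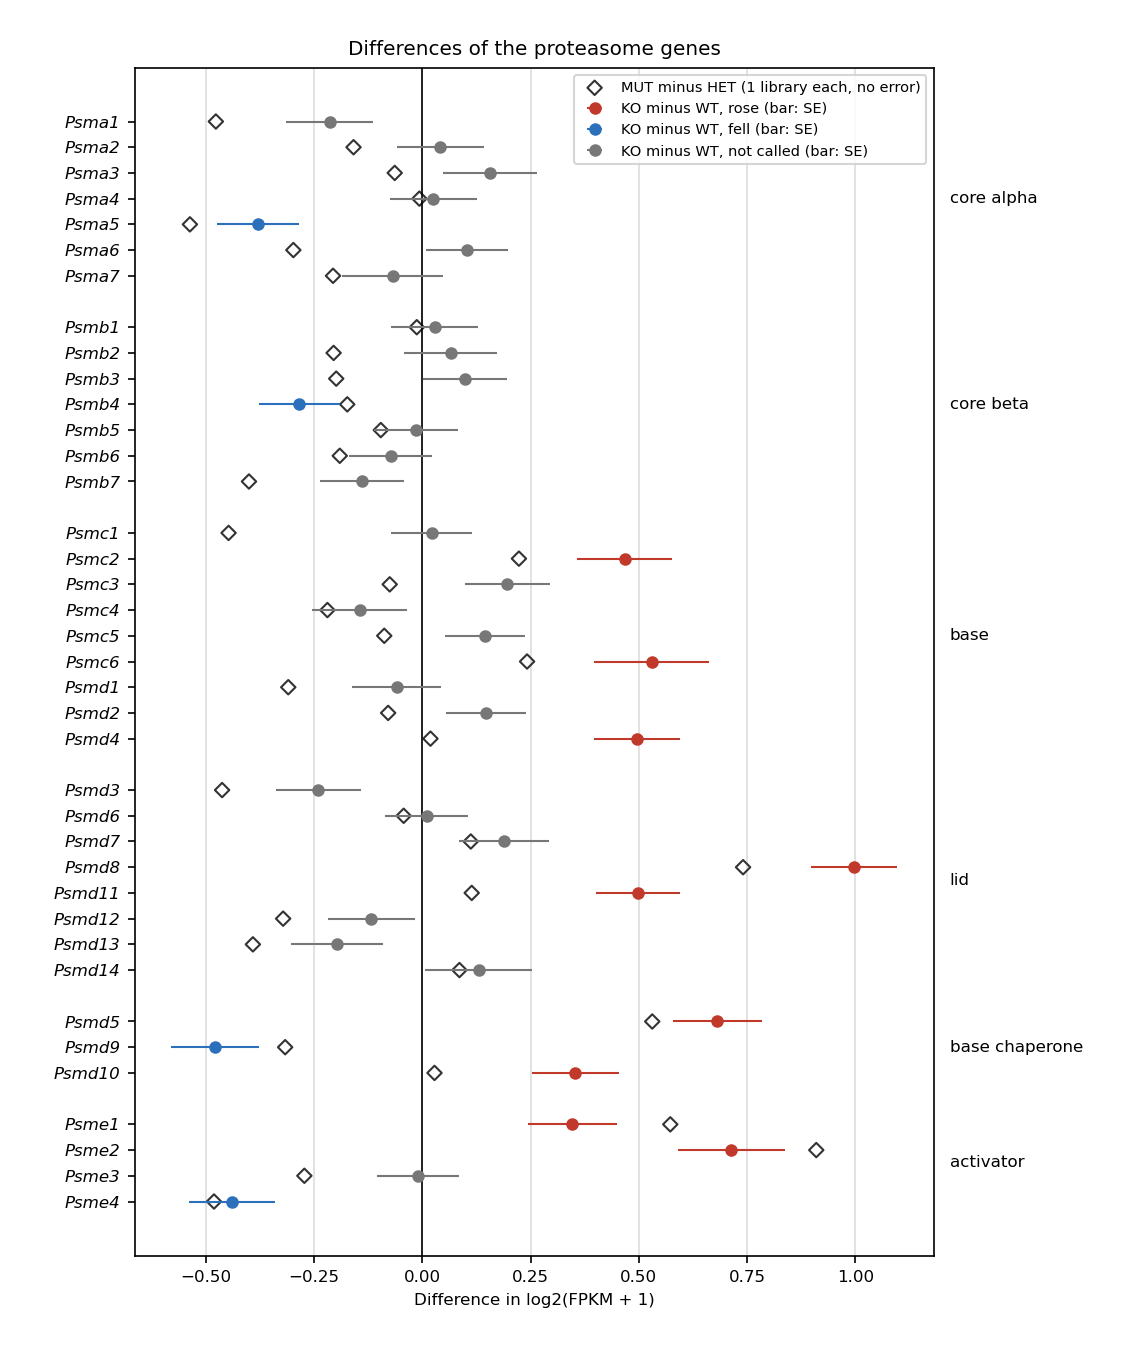
Difference in log2(FPKM + 1) for each tested proteasome gene: filled points are KO minus WT with SE (red rose, blue fell, grey not called), and open diamonds are MUT minus HET from 1 library each. Psmd8 lies furthest right at 0.998 and Psmd9 furthest left at -0.48 among the filled points, and all 14 diamonds of the core genes lie below 0.

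The 3 chaperones that assemble the base moved in both directions. Psmd5 (chromosome 2, 34849734 to 34874968) stood at 44.4 and 51.1 FPKM in KO, 29.6 and 29.1 FPKM in WT, 39.9 FPKM in MUT and 27.3 FPKM in HET. It rose by 0.68 (SE 0.10, adjusted p = 0.000251), and the 4OHT libraries of both genotypes were above the vehicle libraries. Psmd10, the oncoprotein gankyrin (chromosome X, 140948429 to 140956728), stood at 26.9 and 28.6 FPKM in KO, 20.3 and 22.7 FPKM in WT, 22.6 FPKM in MUT and 22.2 FPKM in HET. It rose by 0.35 (SE 0.10, adjusted p = 0.0125), with MUT and HET both within the WT range. Psmd9 (chromosome 5, 123169413 to 123250131) stood at 16.3 and 14.6 FPKM in KO, 21.7 and 22.1 FPKM in WT, 18.1 FPKM in MUT and 22.8 FPKM in HET. Its log2 difference was -0.48 (SE 0.10, adjusted p = 0.00225), and it fell to a level below every vehicle library. The calls of Psmd5 (adjusted p 1e-08 to 0.0414) and Psmd9 (0.000161 to 0.0488) were made under all 12 alternatives. Psmd10 did not pass when WT 1 was left out (adjusted p = 0.109) or when low genes were kept (0.0921), over a range of 0.00168 to 0.109.

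Activators also split. Psme1 and Psme2 encode the alpha and beta chains of PA28, which is known to be induced by interferon and to favour the making of antigenic peptides. Psme2 (ENSMUSG00000079197.10, chromosome 14, 55587441 to 55591113, minus strand) stood at 182 and 189 FPKM in KO, 128 and 98.8 FPKM in WT, 184 FPKM in MUT and 97.3 FPKM in HET. Every 4OHT library was above every vehicle library (log2 difference between KO and WT 0.71, SE 0.12, adjusted p = 0.000632, and between MUT and HET 0.91). Psme1 (ENSMUSG00000022216.17, chromosome 14, 55578123 to 55581529, plus strand) stood at 120.4 and 111 FPKM in KO, 96.2 and 85.3 FPKM in WT, 133 FPKM in MUT and 89.0 FPKM in HET. The order was the same, by a smaller margin (log2 difference between KO and WT 0.35, SE 0.10, adjusted p = 0.0147, and between MUT and HET 0.57). The ratio of Psme2 to Psme1 was 1.51 and 1.70 in KO, 1.33 and 1.16 in WT, 1.38 in MUT and 1.09 in HET.

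Both calls depended on the processing. When low genes were kept in the test, Psme2 had an adjusted p of 0.0995 (range over the alternatives 2.43e-09 to 0.0995) and Psme1 one of 0.127 (range 0.0019 to 0.142). Psme1 had one of 0.142 without WT 2. The row of Irf9 and Rnf31, listed at the coordinates of the Psme2 row, also rose, with 73.5 and 62.7 FPKM in KO against 43.3 and 45.8 FPKM in WT (log2 difference 0.60, SE 0.11, adjusted p = 0.000748). So did Emc9 at those of Psme1 (0.46, SE 0.11, adjusted p = 0.00404), at 16.9 and 17.3 FPKM in KO and 13.2 and 11.2 FPKM in WT. Whether reads were shared between rows at a locus was not tested.

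Psme4, which encodes the nuclear activator PA200 (chromosome 11, 30771726 to 30880361), stood at 18.1 and 19.6 FPKM in KO, 25.0 and 27.0 FPKM in WT, 18.7 FPKM in MUT and 26.5 FPKM in HET. It fell, with a log2 difference of -0.44 (SE 0.10, adjusted p = 0.00346), and MUT lay with the KO libraries. With no filter its adjusted p was 0.0518, the highest of a range that began at 0.000323. Psme3, which encodes the nuclear PA28 gamma (a row it shares with Aoc2), stood at 52.9 and 56.1 FPKM in KO, 53.5 and 56.2 FPKM in WT, 49.8 FPKM in MUT and 60.4 FPKM in HET. KO and WT overlapped (log2 difference -0.01, SE 0.09, adjusted p = 0.94).

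Summed over the members of a particle, the 19S level was below the 20S level in every library, and closer to it in KO than in WT. These sums leave out proteasome genes whose symbols the rule does not match, so they do not cover whole particles. Among those, Shfm1 stood at 277 and 313 FPKM in KO, 299.9 and 299.6 FPKM in WT, 274 FPKM in MUT and 286 FPKM in HET. Adrm1 stood at 126 and 102 FPKM in KO, 103 and 94.2 FPKM in WT, 104 FPKM in MUT and 117 FPKM in HET. A ratio with them was not computed. The 19S sum over base and lid genes was 1957 and 2079.8 FPKM in KO, 1665 and 1752 FPKM in WT, 1742 FPKM in MUT and 1772 FPKM in HET. The 20S sum was 2377 and 2531 FPKM in KO, 2466 and 2573 FPKM in WT, 2319.5 FPKM in MUT and 2692 FPKM in HET. The ratio of 19S to 20S, which does not depend on how a library is scaled as a whole, was 0.823 and 0.822 in KO, 0.675 and 0.681 in WT, 0.751 in MUT and 0.658 in HET. The KO and WT libraries did not overlap (difference 0.144), but 2 libraries against 2 cannot give a two-sided exact permutation p below 0.333. Leaving Psmd8 out of the sum gave 0.712 and 0.705 in KO, 0.619 and 0.627 in WT, 0.667 in MUT and 0.615 in HET, so the order of the libraries did not rest on that gene. In MUT the higher ratio came with a lower 20S sum than in HET, while the 19S sums of MUT and HET were 1742 and 1772 FPKM.

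**Figure D3:**
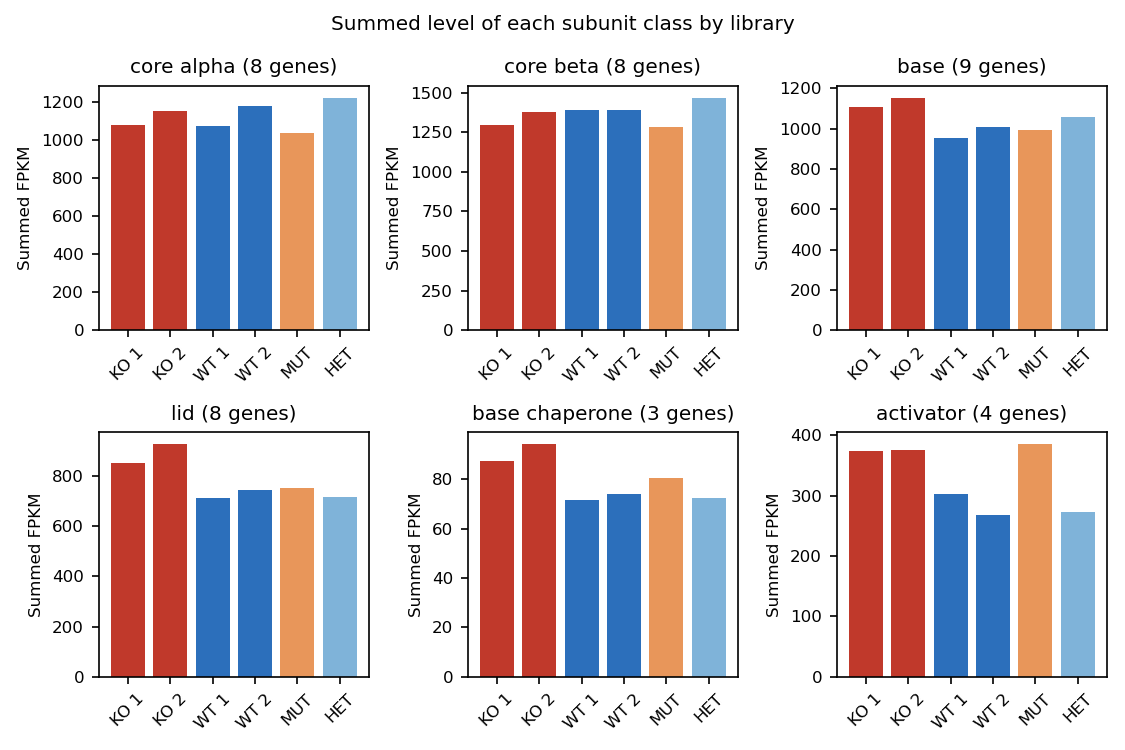
Summed FPKM of the genes of each subunit class (panels) in each library (bars, from 0; KO 1, KO 2, WT 1, WT 2, MUT, HET). KO is above WT for the base, lid, chaperone and activator sums, the KO bars lie below the WT bars for the beta sum and overlap them for the alpha sum, and HET has the tallest bar in both core panels.

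The other genes of the pathway gave these cells a mixed set of changes. The 3 inducible subunits of the immunoproteasome, set apart by the rule, all rose, where 29.5% of all genes were called higher in KO. Psmb8 stood at 95.6 and 97.6 FPKM in KO, 49.0 and 54.3 FPKM in WT, 105 FPKM in MUT and 34.9 FPKM in HET (log2 difference between KO and WT 0.89, SE 0.10, adjusted p = 2.54e-05). Psmb10, on a row with Ctrl, stood at 63.3 and 57.4 FPKM in KO, 29.6 and 28.1 FPKM in WT, 59.9 FPKM in MUT and 23.8 FPKM in HET (1.04, SE 0.10, adjusted p = 9.15e-06). Psmb9 stood at 27.4 and 24.3 FPKM in KO, 20.8 and 21.3 FPKM in WT, 38.9 FPKM in MUT and 18.3 FPKM in HET (0.28, SE 0.10, adjusted p = 0.0354). Psmb9 did not pass in 6 of the 12 alternatives, among them without KO 1 (adjusted p = 0.21), without WT 1 (0.141) and without WT 2 (0.102), over a range of 0.0102 to 0.21.

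Each inducible subunit takes the place of a constitutive one, so their transcripts were set side by side within each library. The ratio of Psmb8 to Psmb5 was 0.512 and 0.478 in KO, 0.247 and 0.276 in WT, 0.574 in MUT and 0.178 in HET. That of Psmb10 to Psmb7 was 0.288 and 0.237 in KO, 0.115 and 0.111 in WT, 0.284 in MUT and 0.0852 in HET. That of Psmb9 to Psmb6 was 0.162 and 0.157 in KO, 0.121 and 0.126 in WT, 0.231 in MUT and 0.0952 in HET. In all 3 pairs the 4OHT libraries were above the vehicle libraries, and in every library the constitutive transcript remained the more abundant one per length.

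**Figure D4:**
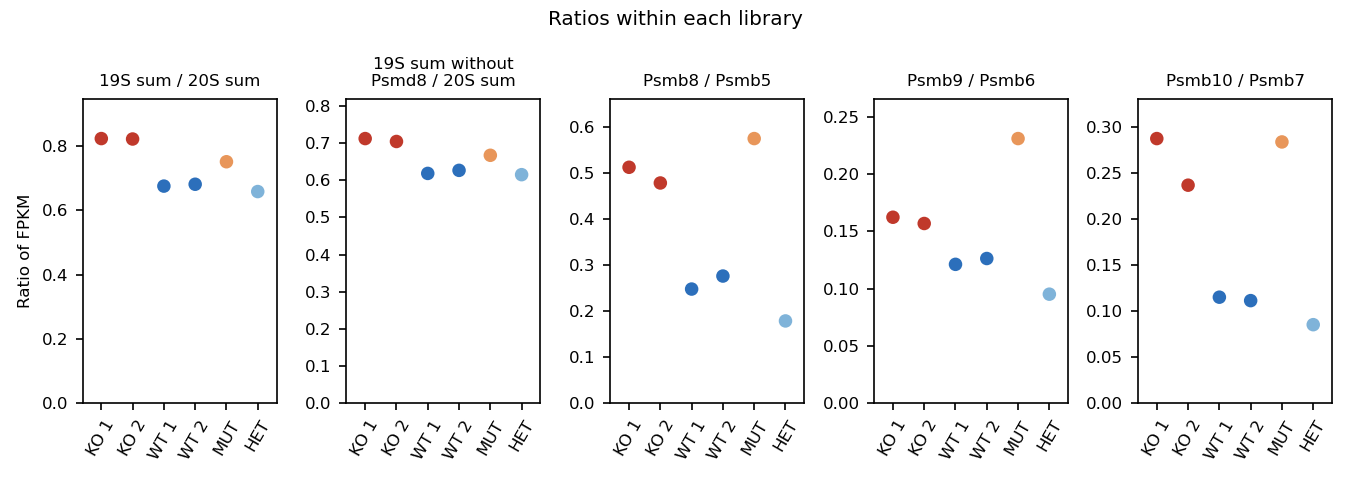
Ratios of FPKM within each library (1 point per library, axes from 0): 19S to 20S sum over the members, the same without Psmd8, and each inducible core subunit over its constitutive counterpart. In all 5 panels both KO points lie above both WT points and the MUT point lies above the HET point.

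Among the regulators of proteasome genes, Nfe2l1, which encodes NRF1, stood at 164 and 161 FPKM in KO, 88.2 and 81.4 FPKM in WT, 136 FPKM in MUT and 68.1 FPKM in HET. It rose by 0.93 (SE 0.10, adjusted p = 1.59e-05). Nfe2l2, which encodes the related factor NRF2, rose by 0.54 (SE 0.10, adjusted p = 0.000881), with 61.0 and 62.9 FPKM in KO against 40.1 and 44.6 FPKM in WT. Ddi2 (on a row with Rsc1a1) and Ngly1, whose products cut and deglycosylate NRF1, were not called (log2 differences -0.17 and 0.11). The median log2 difference of the 38 members was 0.04, but below 0 with quantile normalization (-0.06), without KO 2 (-0.0073) and without WT 1 (-0.0075). FPKM of transcripts does not measure the processing of NRF1 protein.

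Of the 6 core assembly and inhibitor genes, Pomp, which matures the core, fell by 0.38 on the log2 scale (adjusted p = 0.00553), with 182 and 185 FPKM in KO and 234 and 245 FPKM in WT. It did not pass without WT 2 (adjusted p = 0.064, over a range of 0.000653 to 0.064). Psmf1, the inhibitor PI31, rose by 0.43 (adjusted p = 0.00371), with 15.1 and 14.3 FPKM in KO and 10.7 and 10.6 FPKM in WT. The chaperones Psmg1 to Psmg4 were not called, though Psmg1 came close (log2 difference -0.26, SE 0.10, limma adjusted p = 0.0509). It was called lower in 4 of the 12 alternatives, among them quantile normalization (adjusted p = 0.00943) and median-of-ratios scaling (0.0279). Psmg3 was called higher, and Psmg4 lower, in 2 of the 12 alternatives each. Of the 4 other genes of the 26S particle, Usp14, a deubiquitinase bound to the base, rose by 0.31 (adjusted p = 0.0368), a call lost in 5 of the 12 alternatives, with the highest adjusted p, 0.292, without WT 1 and the lowest 0.00455. Adrm1, Shfm1 and Uchl5 were not called.

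Among the genes that make and activate ubiquitin, Uba6 and Ubb were called higher in KO. Uba6, an enzyme that activates ubiquitin, had 18.4 and 19.03 FPKM in KO against 10.6 and 12.2 FPKM in WT (log2 difference 0.67, adjusted p = 0.000334). Ubb, which encodes ubiquitin, rose less (0.31, adjusted p = 0.033). It had 1009 FPKM in MUT against 1262 FPKM in HET. Its call was lost in 5 of the 12 alternatives: without WT 1 (adjusted p = 0.0792), without WT 2 (0.377), with no filter (0.306), with median-of-ratios scaling (0.0544) and in the fit with a replicate block (0.0535), over a range of 0.00336 to 0.377. Of 8 genes that bring substrates to the proteasome, 3 rose: Rad23b (0.56, adjusted p = 0.00122), a shuttle for ubiquitinated proteins, and Nploc4 (0.49, adjusted p = 0.00153) and Ufd1l (0.35, adjusted p = 0.00819), cofactors of the segregase VCP. Without WT 1 the adjusted p of Ufd1l was 0.0674 (range 0.00131 to 0.0674), and with no filter that of Rad23b was 0.0769 (range 1.21e-07 to 0.0769). Ubqln2, another shuttle, fell by 0.57 on the log2 scale (adjusted p = 0.000484), with 22.2 and 21.4 FPKM in KO and 32.5 and 33.3 FPKM in WT. Vcp itself overlapped between the groups, at 234 and 244 FPKM in KO and 228 and 250.2 FPKM in WT.

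MUT against HET rests on 1 library each, so its values are given as a description. A fit that borrows the spread of WT and KO was run as an alternative. The members leaned downward there: 27 of 38 were lower in MUT than in HET, against 49.4% of all genes, and 11 were higher, against 50.6%, with a median log2 difference of -0.13, against 0.01 for all genes. Replicates leaned as well: KO 2 was above KO 1 in 29 of the 38 members, and WT 2 above WT 1 in 25. The median log2 difference was -0.10 for KO 1 minus KO 2 and -0.06 for WT 1 minus WT 2. A lean between single libraries is therefore not read as an effect of genotype or treatment. All 14 tested core genes were lower in MUT, by between 0.01 and 0.54 on the log2 scale, though with quantile normalization Psma4 was higher. Psma5 (-0.54), Psma1 (-0.48) and Psmb7 (-0.40) were the furthest of them. Psma1 had 114 FPKM in MUT and 158 FPKM in HET. The base median was -0.08, the lid median 0.02, the chaperone median 0.03 and the activator median 0.15. No member differed by 2-fold on the log2(FPKM + 1) scale, as 13.7% of all genes did. Psme2 (0.91), Psmd8 (0.74), Psme1 (0.57) and Psmd5 (0.53) were furthest above HET.

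The members called in KO kept their side in the other genotype. All 9 that rose in KO were higher in MUT than in HET, although with quantile normalization Psmd4 was lower, and all 4 that fell were lower in MUT. Of the 25 members not called in KO, 23 were lower in MUT than in HET. How often all genes, called or not called in KO, kept their side was not counted. These counts are therefore not read as particular to the proteasome genes. HET also stood high: it was above the WT mean in 26 of the 38 members, against 51.4% of all genes, with a median log2 difference of 0.07. HET and MUT were each a single library, so a difference of genotype and a difference of 1 library cannot be told apart. The 20S sum of HET, 2692 FPKM, was above both WT libraries (2466 and 2573 FPKM), and that of MUT, 2319.5 FPKM, was below both KO libraries (2377 and 2531 FPKM).

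Whether the effect of 4OHT differed between the genotypes was tested as KO minus WT less MUT minus HET, in 1 fit of all 6 libraries. No member was called, against 4.01% of all genes, and 4 members had an unadjusted p under 0.05, against 17.3% of all genes. The smallest adjusted p was that of Psmc1 (0.155). Psmc1 stood at 140.2 and 141 FPKM in KO and 135 and 142 FPKM in WT, but at 119 FPKM in MUT and 162 FPKM in HET, a difference between effects of 0.47 (SE 0.16). The other 3 were Psma6, Psmd4 and Psmd11. Without KO 1, Psmd4 was called (0.56, adjusted p = 0.0259). The difference was above 0 in 34 of 38 members, against 53.7% of all genes, with a median of 0.21, against 0.03. Since the members also leaned together between replicates, that count is not read as an effect of genotype. The lone HET and MUT libraries are assumed in this fit to vary like WT and KO.

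Levels of cell type markers also differed between the groups, where 29.5% of all genes were called higher and 28.2% lower in KO. Adar stood at 34.2 and 31.3 FPKM in KO, 19.6 and 19.5 FPKM in WT, 33.0 FPKM in MUT and 17.0 FPKM in HET (log2 difference 0.72, SE 0.10, adjusted p = 0.000125). The deleted exons are not given in the labels, so a level for the whole gene checks neither KO nor MUT. All 8 pluripotency markers fell, to a summed 8.30 to 22.0 FPKM in KO, against 486 to 608 FPKM in WT, with 43.2 FPKM in MUT and 626 FPKM in HET. Zfp42 was at 0 in KO 1. All 6 epithelial markers fell as well, with a summed 12.2 to 13.6 FPKM in KO, 137 to 152 FPKM in WT, 14.1 FPKM in MUT and 183 FPKM in HET, and so did all 8 proliferation markers, with 63.5 to 71.0 FPKM in KO, 357 to 384 FPKM in WT, 131 FPKM in MUT and 524 FPKM in HET. Of 8 fibroblast markers 5 fell and Fn1 rose (summed 3309 to 3397 FPKM in KO, 5273 to 5712 FPKM in WT, 4375 FPKM in MUT and 5204 FPKM in HET). Of 8 macrophage and blood markers, 5 were tested, of which 1 rose and 2 fell (summed 444 to 458 FPKM in KO, 661 to 676 FPKM in WT, 454 FPKM in MUT and 817 FPKM in HET). Nearly all of that sum came from the row of Cd68, one of the 2 that fell, which also names Eif4a1, a translation factor of all cells, and Senp3. The 6 markers on rows of their own summed to 6.46 to 8.06 FPKM in KO, 22.4 to 26.4 FPKM in WT, 13.03 FPKM in MUT and 44.6 FPKM in HET. The lower KO sums came from Laptm5, the other marker that fell, at 3.31 and 2.83 FPKM in KO and 23.4 and 19.9 FPKM in WT. They do not show a fall of these markers as a set. Ctss rose (log2 difference 0.43), and Tyrobp, not called, had a log2 difference of 0.35. Ptprc, Csf1r and Adgre1 were under 1 FPKM in every library. Of 6 endothelial markers, 4 were tested, of which 1 rose and 3 fell (summed 5.46 to 5.65 FPKM in KO, 5.95 to 6.13 FPKM in WT, 4.93 FPKM in MUT and 7.74 FPKM in HET). Cdh5 was at 0 in KO 1 and Emcn in MUT. The part of these shifts in the proteasome results was not tested.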

How the data were processed

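Total RNA was depleted of ribosomal RNA before sequencing, per the labels' protocols. The deposited files give FPKM for each gene row, made by the authors, per the file headers, and write decimals with a comma. Cufflinks 2.2.1, TopHat2 2.1.1 and Bowtie2 2.3.0 appear in the submitters' processing notes, with GRCm38 and mm10. Annotation, strand and scaling across libraries: not given in the sources used here. Without strand, reads of overlapping genes cannot be told apart, and several proteasome genes have near-identical processed copies elsewhere that can share their reads.

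Each library had 24879 rows, of which 1021 without a gene name (8.26% to 14.2% of FPKM) were left out. Rows naming several genes were matched by any of their names. Where a symbol had more than 1 row, as Psma3 did, only that of highest mean entered, leaving 23406 symbols. All 40 members lay on the chromosome of their gene in GENCODE release M 21, from which coordinates were taken. Depth is not stated. It was estimated from the smallest FPKM steps, at an assumed fragment length of 200 bases, as 15100000 to 21900000 fragments in a library, and no counting intervals are given. At these estimated depths, replicates differed by more than counting noise. The median chi-square between replicates was 1.91 for KO and 1.65 for WT, against 0.455 from counting alone. The Pearson r between replicates across genes was 0.995 for KO and 0.995 for WT.

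Differences of log2(FPKM + 1) were tested with limma 3.58.1 (R 4.3.3), by a two-sided moderated test whose prior variance follows the mean (trend), adjusted by Benjamini-Hochberg over 12266 genes and called under 0.05. A gene was tested with at least 1 FPKM in at least 2 libraries. KO against WT used those 4 libraries and the difference between effects all 6. MUT against HET, with 1 library each, is given as values, and a fit borrowing the spread of WT and KO was an alternative. Scripts were tested on simulated data. Ratios were tested with an exact permutation test. SDs are over FPKM of 2 libraries, and SEs are limma's. Tables and plots used Python 3.11.15, pandas 2.3.3 and matplotlib 3.10.9. Alternatives to the fit of KO against WT were another pseudocount (0.1), no filter, no trend, median-of-ratios scaling, quantile normalization, summed rows, a fit of all 6 libraries, a replicate block and each library left out.

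The members, the pathway and marker lists and the motifs were chosen with earlier results of these data known. Genes given in full are the cutting subunits, the activators and, in each other class, the 2 called members with the largest rise and the 2 with the largest fall. Other members are given as ranges, or singly where called. Psmb7 and Psmd3, not called in the main fit, are given with the alternatives that called them. Psma1, Psmc3, Psmc4, Psmc5, Psmd7 and Psmd13 also had such alternatives, which are not given singly. Windows to print, and members named by rank in MUT against HET or in the difference between effects, were chosen after their values were seen. One gene of these lists is not reported here.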

Additional observations from a re-analysis of the deposited data

Results flagged for a closer look

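Psmb9, the inducible counterpart of Psmb6, was higher in 4OHT libraries of both genotypes, but its difference from vehicle was smaller in KO than in MUT. KO minus WT was 0.28 and MUT minus HET 1.05 on the log2 scale, and the KO effect minus the MUT effect was -0.77 (SE 0.18, limma adjusted p = 0.0396 over all genes). With HET and MUT at 1 library each, genotype and single library cannot be told apart. Over 10 alternatives the adjusted p lay between 0.000923 (without KO 1) and 0.225 (no filter), and the call was also lost without WT 1 (0.1), without WT 2 (0.115) and with no trend (0.0578).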

How the results depend on the processing

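With no filter on low values 4433 genes were called in KO against WT, in place of 7080. Members called were then 7 in place of 13, of which 4 rose in place of 9. With quantile normalization 8 members fell in place of 4, and the median log2 differences became -0.131 for core beta, 0.0553 for base, -0.0210 for lid, 0.0817 for activator genes and -0.0614 for all members. The cause of these changes was not tested. Leaving out 1 library at a time gave 9 to 17 members called, with 6 to 11 that rose and 2 to 6 that fell. Medians then ran from -0.0412 to 0.0921 for core alpha, -0.0572 to 0.0493 for core beta, -0.0536 to 0.134 for lid, 0.277 to 0.430 for chaperone genes and -0.00754 to 0.115 for all members. For the difference between effects, leaving out 1 library gave 286 (without WT 2) to 1192 genes (without KO 1) in place of 492, and 0 to 1 members in place of 0. Of the 13 calls, those of Psmd5, Psmd8, Psmd9 and Psmd11 were made under every one of the 12 alternatives, and 8 of the 25 members not called were called under at least 1. No called value changed sign under the alternatives run. A limma fit of MUT against HET that borrows the spread of WT and KO, and assumes that the lone libraries vary like them, called 10 members, 4 higher (Psmd5, Psmd8, Psme1 and Psme2) and 6 lower (Psma1, Psma5, Psmb7, Psmc1, Psmd3 and Psme4), and 5309 genes in all.

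Replicate numbers of KO and WT were not shown to pair the libraries: deviations of same-numbered libraries had a Pearson r of 0.183 over genes, with 2 pairs only. In the fit with a replicate block 7959 genes and 15 members were called, 9 higher and 6 lower. The medians of the classes did not move, since the block leaves group means as they are. FPKM limits what depth can show here: the precision of the lowest members, Psma8 and Psmb11, is unknown.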
